A study of Mus musculus with 7 samples.

Results

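Interferon-stimulated genes are the genes that cells switch on when interferons, the signalling proteins of antiviral and antibacterial defence, bind their receptors. A list of 38 symbols, chosen with earlier results of these data known, was looked up in a table of 22173 genes. Of the 38, 36 were found and tested. Mx1 and Mx2 were not analysed here, and RefSeq annotates both on the reference genome GRCm38 as transcribed pseudogenes. The 36 genes were divided by the interferon best known to induce them, giving 25 type I induced genes, 10 GTPase genes induced by interferon gamma, and Irf1, a transcription factor induced by both. Messenger RNA was sequenced from 7 mouse spleen libraries, 4 from spleens remodelled with a material called sHA-X and 3 from spleens treated with phosphate-buffered saline (PBS). Both groups had received hepatocytes, the main cells of the liver, and RNA was taken 30 days later. Strain, sex, age and the number of animals are not given in the sources used here, nor is it stated that each library came from its own animal. The p-values therefore speak of the spread among libraries, which may be technical.

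Type I interferons signal through the receptor chains Ifnar1 and Ifnar2 to a complex that contains Stat2 and Irf9 and binds the interferon-stimulated response element in target promoters. Interferon gamma signals through Ifngr1 and Ifngr2 to genes that carry the gamma-activated sequence, and it induces Irf1. Many target genes respond to both pathways, so membership of a class records the best known inducer and not the only one. In the spleen, plasmacytoid dendritic cells are known as producers of type I interferon, and T cells and natural killer (NK) cells as producers of interferon gamma.

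Values were read as FPKM, read fragments scaled to transcript length and library size, from a table whose header names no unit. Recovered totals were between 29259806 and 36764489 reads per library, and the 36 genes had between 297 and 14356 reads in any library. The libraries carried the marker genes of spleen. Summed B cell markers were 1193 to 1372 FPKM in sHA-X and 1751 to 2095 FPKM in PBS. By the rule given below, 7 of the 9 were called lower, beside 5.03% of all genes tested. Summed markers of red pulp macrophages, which clear old red cells, were 1734 to 1910 FPKM in sHA-X and 839 to 1146 FPKM in PBS. Of these markers 7 of 7 were called higher, beside 9.30% of all genes tested. In bulk tissue, more cells of a type and more RNA per cell cannot be told apart. A few libraries stood apart. Summed hepatocyte markers were 646 and 668 FPKM in sHA-X replicates 3 and 4, against 3.73 to 23.3 FPKM in the other 5 libraries. Skeletal muscle markers summed to 151 FPKM in sHA-X replicate 2 and to at most 9.999 FPKM elsewhere. Pancreatic acinar markers summed to 435 FPKM in PBS replicate 2 and to at most 0.0853 FPKM elsewhere. No marker of these lists was at 0 in all 7 libraries.

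The promoters of 6 genes that the results turn on show the DNA letters by which the 2 pathways are known to reach their targets. Each window runs from 250 bases before the annotated start to 50 bases after it, 5′ to 3′ on the gene's strand, from RefSeq on GRCm38.p6. Capitals mark GAAANNGAA, the core of the interferon-stimulated response element, and TTCNNNGAA, the gamma-activated sequence. Both strands were searched, so the first motif can also appear reversed and complemented. The windows lie on chromosome 3, 142620413 to 142620712 (Gbp2, plus strand), chromosome 11, 58199306 to 58199605 (Igtp, plus) and 58214727 to 58215026 (Irgm2, plus), chromosome 11, 53769764 to 53770063 (Irf1, plus, the first of 2 windows), chromosome 4, 156200769 to 156201068 (Isg15, minus) and chromosome 12, 26456403 to 26456702 (Rsad2, minus).
Gbp2: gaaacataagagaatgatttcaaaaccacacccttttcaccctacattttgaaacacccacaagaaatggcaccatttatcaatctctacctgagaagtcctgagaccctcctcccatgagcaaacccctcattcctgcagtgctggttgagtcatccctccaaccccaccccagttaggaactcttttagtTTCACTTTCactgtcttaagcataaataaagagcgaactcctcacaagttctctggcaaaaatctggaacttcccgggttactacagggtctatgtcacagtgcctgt
Igtp: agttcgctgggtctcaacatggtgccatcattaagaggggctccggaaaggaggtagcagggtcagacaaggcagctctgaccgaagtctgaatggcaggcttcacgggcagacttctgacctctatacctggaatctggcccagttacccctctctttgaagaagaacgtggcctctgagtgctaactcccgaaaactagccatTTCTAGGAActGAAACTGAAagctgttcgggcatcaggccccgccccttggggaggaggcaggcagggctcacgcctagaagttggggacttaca
Irgm2: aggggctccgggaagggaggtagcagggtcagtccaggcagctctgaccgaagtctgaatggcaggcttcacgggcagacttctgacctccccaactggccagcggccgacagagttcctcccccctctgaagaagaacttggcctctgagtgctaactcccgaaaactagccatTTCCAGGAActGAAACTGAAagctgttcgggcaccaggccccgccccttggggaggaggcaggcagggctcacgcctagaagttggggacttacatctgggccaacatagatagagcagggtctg
Irf1: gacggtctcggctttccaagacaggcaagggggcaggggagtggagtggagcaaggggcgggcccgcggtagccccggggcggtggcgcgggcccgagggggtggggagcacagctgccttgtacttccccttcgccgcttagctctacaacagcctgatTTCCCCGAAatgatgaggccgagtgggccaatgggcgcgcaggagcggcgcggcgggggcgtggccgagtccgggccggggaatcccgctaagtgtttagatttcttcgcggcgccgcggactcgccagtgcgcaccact
Isg15: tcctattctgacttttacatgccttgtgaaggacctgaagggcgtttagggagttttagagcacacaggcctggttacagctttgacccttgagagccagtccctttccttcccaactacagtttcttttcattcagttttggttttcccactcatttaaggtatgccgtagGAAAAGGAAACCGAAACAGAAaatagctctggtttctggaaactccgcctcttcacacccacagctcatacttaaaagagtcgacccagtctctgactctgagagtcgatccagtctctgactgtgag
Rsad2: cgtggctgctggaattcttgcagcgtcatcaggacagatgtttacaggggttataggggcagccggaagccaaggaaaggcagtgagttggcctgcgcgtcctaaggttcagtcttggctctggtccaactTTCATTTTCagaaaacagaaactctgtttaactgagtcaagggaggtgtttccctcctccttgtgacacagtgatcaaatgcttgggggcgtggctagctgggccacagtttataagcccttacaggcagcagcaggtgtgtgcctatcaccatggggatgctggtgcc
In Gbp2 the response element core began 58 bases before the start and no gamma-activated sequence was found. Igtp and Irgm2, neighbours on chromosome 11, each held both motifs, with the gamma-activated sequence beginning 45 bases before the start in Igtp and 75 in Irgm2. Their longest identical stretch, of 61 bases, lay downstream of both motifs. Irf1 held a gamma-activated sequence 90 bases before the start and no response element core. Isg15 held 3 overlapping response element cores, beginning 78, 72 and 66 bases before the start, and Rsad2 held 1, beginning 119 bases before it.

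Promoter windows were at hand for 28 of the 38 genes, 34 windows in all. The response element core was in 7 of 8 windows of the GTPase genes (87.5%), in 11 of 24 of the type I induced genes (45.8%) and in 8.56% of all 32851 windows. The gamma-activated sequence was in 4 of 8 windows of the GTPase genes (50%), in 5 of 24 of the type I induced genes (20.8%) and in 8.30% of all windows. Counts are a description of letters in a window, and neither a match nor its absence shows what binds there.

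Of the 36 interferon-stimulated genes, 10 were higher in sHA-X than in PBS spleens and 0 were lower, by limma at an adjusted p under 0.05 over 11920 genes. Among all genes tested, 9.30% were called higher and 5.03% lower by the same rule. Without adjustment, 13 of the 36 were higher at p under 0.05 and 0 lower. The 10 genes were Iigp1, Gbp2, Irgm2, Gbp5, Gbp6 and Igtp among the GTPases, Ifi44, Ifitm3 and Zbp1 among the type I induced genes, and Irf1. The median log2 change of the 36 was 0.28, beside 0.026 for all genes tested. All 4 sHA-X libraries lay above all 3 PBS libraries for 12 of the 36, beside 17.2% of all genes tested, and below them for 0, beside 11.5%. The number called higher was 3 without PBS replicate 1, 4 without PBS replicate 2, 5 when either sHA-X replicate 3 or sHA-X replicate 4 was omitted, and 5 with no filter on low values. Of all genes tested in these fits, 4.09% were called higher without PBS replicate 1 and 6.02% without PBS replicate 2. In the other fits named the share ran from 5.84% (no filter) to 6.78% (without sHA-X replicate 3).

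**Figure D1:**
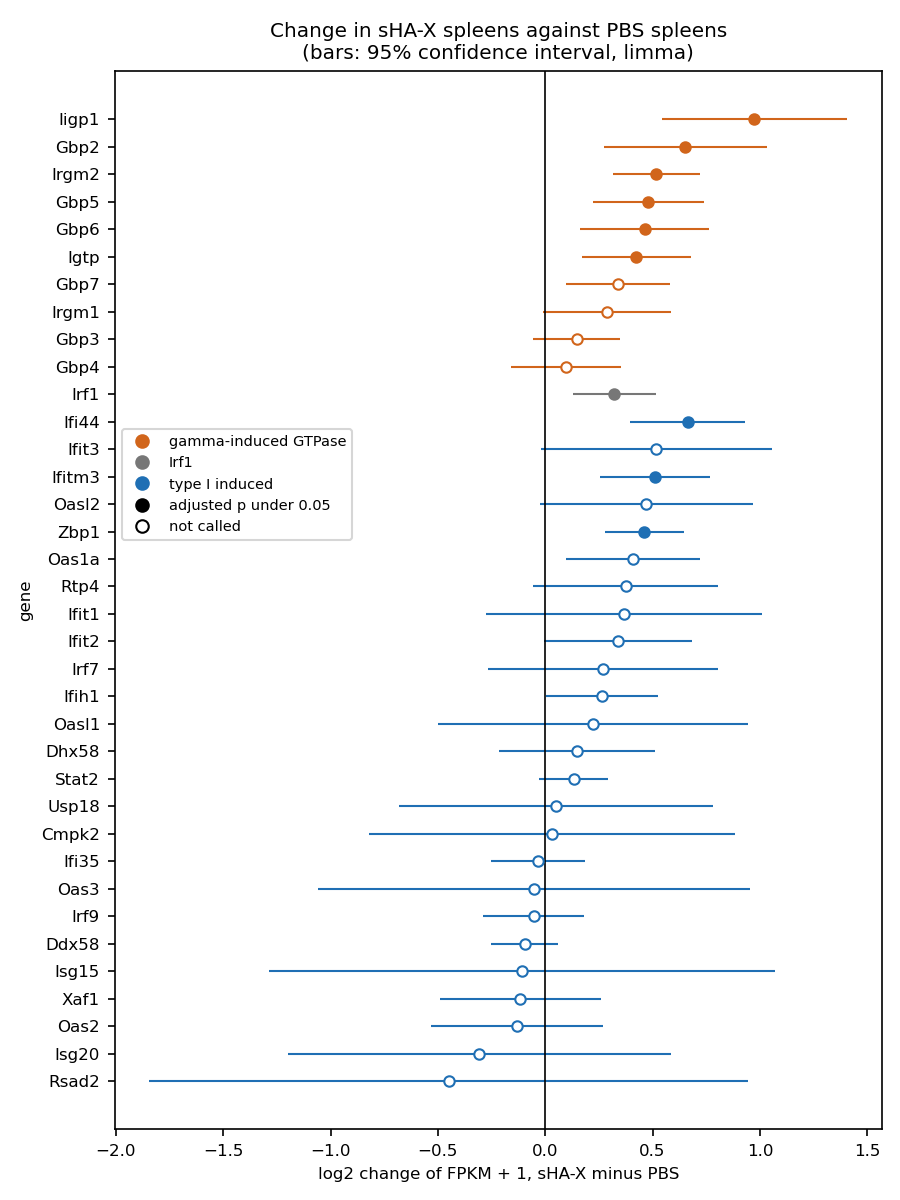
Log2 change of FPKM + 1 in sHA-X against PBS spleens for the 36 interferon-stimulated genes, with points for the limma estimate, bars for its 95% confidence interval and filled points for an adjusted p under 0.05. All 10 GTPase genes sit to the right of 0, from 0.10 (Gbp4) to 0.97 (Iigp1), while the type I induced genes run from -0.45 (Rsad2) to 0.66 (Ifi44) with wide intervals for Rsad2, Isg15, Oas3 and Isg20.

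The GTPases were the class with the most calls. They are the guanylate-binding proteins (Gbp) and the immunity-related GTPases (Iigp1, Irgm1, Irgm2, Igtp), which gather on the vacuoles of intracellular bacteria and parasites. Of the 10, 6 were called higher and 0 lower, beside 9.30% and 5.03% of all genes tested. All 10 had a log2 change above 0, beside 6656 of the 11920 genes tested, and their median was 0.44. All 4 sHA-X libraries lay above all 3 PBS libraries for 7 of the 10, the called genes and Gbp7, beside 17.2% of all genes tested. The number called was 1 when either PBS replicate 1 or PBS replicate 2 was omitted. It was 2 when either sHA-X replicate 3 or sHA-X replicate 4 was omitted, and 2 with no filter on low values. The shares of all genes called higher in these fits are given above. Their summed level was 301 to 411 FPKM in sHA-X and 253 to 259 FPKM in PBS. The genes of the Gbp family resemble each other closely, and Igtp and Irgm2 overlap in the GENCODE annotation, so reads may be shared and single genes of these families are uncertain.

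Iigp1, an effector that disrupts the vacuoles of parasites, had the greatest change of the 36 genes. It had 38.4, 36.7, 54.8 and 61.0 FPKM in sHA-X (libraries in the order of their replicate numbers here and below), against 22.9, 23.4 and 23.3 FPKM in PBS. The groups did not overlap, the PBS libraries were nearly level, and sHA-X replicates 3 and 4 were the highest. The mean was 47.7 ± 12.1 FPKM in sHA-X (SD, n = 4) and 23.2 ± 0.267 FPKM in PBS (SD, n = 3), a ratio of 2.05. The log2 change was 0.97 (SE 0.18, adjusted p = 0.016 by limma). The adjusted p reached 0.070 when PBS replicate 1 or PBS replicate 2 was omitted, and the call held without sHA-X replicates 3 and 4 together (log2 change 0.67, adjusted p = 0.0097).

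The other immunity-related GTPases are known in mice as regulators that keep the effectors off the cell's own membranes. Irgm2 had 37.8, 35.0, 44.0 and 44.0 FPKM in sHA-X, against 28.6, 27.9 and 26.5 FPKM in PBS, with no overlap. Its log2 change was 0.52 (SE 0.09, adjusted p = 0.0077), called in every fit that left out 1 library and also without sHA-X replicates 3 and 4 (0.38, adjusted p = 0.048). Igtp, also called Irgm3, lies next to Irgm2 and shared its order, with replicates 3 and 4 on top. It had 57.8, 52.8, 71.7 and 68.7 FPKM in sHA-X, against 45.4, 50.1 and 43.3 FPKM in PBS. The groups did not overlap, but the gap between the lowest sHA-X and the highest PBS library was small. The call (log2 change 0.42, SE 0.11, adjusted p = 0.038) was lost in 6 of the 7 fits that left out 1 library (adjusted p up to 0.13). It was also lost with no filter (adjusted p = 0.069) and after median rescaling (0.053), and it held after quantile normalization (0.038). Irgm1, which lies elsewhere on chromosome 11 and is also known for its part in autophagy, was not called. It had 57.5, 48.0, 69.5 and 60.3 FPKM in sHA-X, against 51.6, 50.9 and 41.0 FPKM in PBS, and sHA-X replicate 2 lay within the PBS range (log2 change 0.29, adjusted p = 0.18).

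Among the guanylate-binding proteins, Gbp2, Gbp5 and Gbp6 were called higher and Gbp3, Gbp4 and Gbp7 were not called. Gbp2, Gbp3, Gbp5 and Gbp7 lie together on chromosome 3 between 142496934 and 142638008, and Gbp4 and Gbp6 lie on chromosome 5. Gbp2, whose promoter is printed above and whose protein coats bacteria and their vacuoles, had 37.9, 39.6, 55.2 and 55.8 FPKM in sHA-X, against 28.9, 26.0 and 33.0 FPKM in PBS. Gbp5, which promotes the assembly of the NLRP3 inflammasome, had 21.4, 19.4, 25.9 and 26.2 FPKM in sHA-X, against 15.6, 15.3 and 17.9 FPKM in PBS. Both rose without overlap, with log2 changes of 0.65 (SE 0.16, adjusted p = 0.038) and 0.48 (SE 0.11, adjusted p = 0.027). Omitting any of PBS replicates 1 and 2 and sHA-X replicates 3 and 4 ended both calls, with an adjusted p of at most 0.13 for Gbp2 and 0.10 for Gbp5.

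Gbp6 was the lowest of the 10 GTPases in FPKM. It had 7.05, 7.60, 9.95 and 10.4 FPKM in sHA-X, against 5.86, 6.53 and 5.64 FPKM in PBS. Its call was the nearest to the threshold (log2 change 0.46, SE 0.13, adjusted p = 0.049). The call was lost in 6 of the 7 fits that left out 1 library (adjusted p up to 0.16). It was also lost with no filter (adjusted p = 0.085), after median rescaling (0.064) and after quantile normalization (0.081). Gbp7 had 20.1, 18.4, 25.7 and 23.7 FPKM in sHA-X, against 17.1, 16.8 and 17.1 FPKM in PBS, which did not overlap but missed the threshold (log2 change 0.34, adjusted p = 0.069). Gbp3 had 26.9, 27.4, 33.3 and 32.5 FPKM in sHA-X, against 27.04, 25.4 and 28.3 FPKM in PBS. Gbp4 had 15.4, 15.9, 20.9 and 20.3 FPKM in sHA-X, against 16.1, 16.8 and 17.3 FPKM in PBS. In Gbp3 and Gbp4 the sHA-X replicates 3 and 4 lay above PBS and replicates 1 and 2 did not. Their log2 changes were 0.15 (adjusted p = 0.32) and 0.10 (adjusted p = 0.61), and that of Gbp4 was -0.090 without sHA-X replicates 3 and 4.

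Replicates 3 and 4 were both above replicates 1 and 2 of sHA-X for 10 of the 10 GTPases. The order was noticed in the data, and 3 of the 25 type I induced genes and 13.9% of all genes tested also show it. Replicates 3 and 4 are the libraries with the high hepatocyte marker sums, 646 and 668 FPKM. The part of this in the GTPase values was not tested beyond leaving them out. With sHA-X replicates 1 and 2 alone against PBS, 9 of the 10 log2 changes remained above 0 and the median was 0.25. Iigp1 and Irgm2 were called higher in that fit, beside 3.25% of all genes. Red pulp macrophage markers, higher in sHA-X as given above, summed to 1796, 1790, 1734 and 1910 FPKM in its replicates 1 to 4. In this sum replicate 4 was the highest and replicate 3 the lowest, and single markers need not follow the sum. Fibroblast (4 of 5), monocyte (2 of 6) and neutrophil (2 of 6) markers were also called higher, beside 9.30% of all genes tested. In these lists 0 were called lower. The part of these cell types in the GTPase values was not tested.

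**Figure D2:**
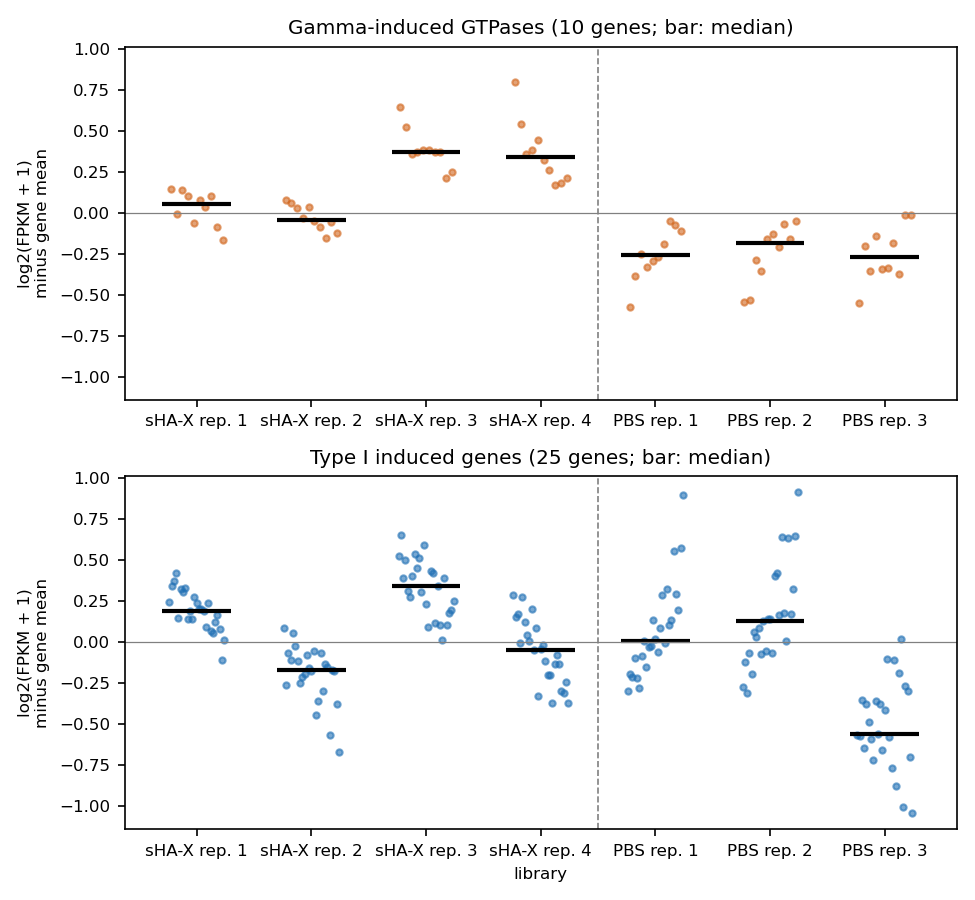
Each gene's log2(FPKM + 1) minus its mean over the 7 libraries, by library, for the 10 GTPase genes above and the 25 type I induced genes below, with a bar at the median. GTPase medians were 0.056, -0.043, 0.37 and 0.34 in sHA-X replicates 1 to 4 against -0.26, -0.18 and -0.27 in PBS, whereas type I medians alternated within sHA-X (0.19, -0.17, 0.34 and -0.046) and split PBS (0.0068, 0.13 and -0.56).

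Irf1, the transcription factor that switches on many of the GTPase genes and holds a gamma-activated sequence in its promoter, was called higher. It had 47.7, 52.6, 56.4 and 60.8 FPKM in sHA-X, against 41.3, 43.2 and 45.0 FPKM in PBS. The groups did not overlap, and the mean was 54.4 ± 5.56 FPKM in sHA-X (SD, n = 4) and 43.1 ± 1.85 FPKM in PBS (SD, n = 3). The log2 change was 0.32 (SE 0.08, adjusted p = 0.038 by limma). The call was lost in 5 of the 7 fits that left out 1 library (adjusted p up to 0.14). It was also lost with no filter (adjusted p = 0.061), after median rescaling (0.061) and after quantile normalization (0.056).

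The type I induced genes gave fewer calls. Of 25, 3 were called higher and 0 lower, beside 9.30% and 5.03% of all genes tested, so the share called higher was near the background. Their median log2 change was 0.15, with 16 above 0 and 9 below, and all sHA-X libraries lay above all PBS libraries for 4, the called genes and Stat2, a share near the 17.2% of all genes tested. Their summed level was 761 to 1131 FPKM in sHA-X and 621 to 1012 FPKM in PBS, which overlapped. Without sHA-X replicate 2, 5 were called higher, beside 6.45% of all genes in that fit. Without PBS replicate 3, 2 were called lower, beside 5.33% of all genes. The difference between the 2 classes was not tested.

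The called type I induced genes were Ifi44, Ifitm3 and Zbp1. Ifi44, an interferon-induced protein of the cytoplasm, had 6.19, 5.43, 7.74 and 6.39 FPKM in sHA-X, against 3.94, 4.01 and 3.10 FPKM in PBS. Ifitm3, which blocks the fusion of viruses with endosomes, had 329, 242, 334 and 286 FPKM in sHA-X, against 219, 205 and 199 FPKM in PBS. Zbp1, a sensor of left-handed nucleic acid that can trigger cell death, had 29.6, 27.6, 33.3 and 32.4 FPKM in sHA-X, against 22.7, 23.2 and 20.3 FPKM in PBS. The groups did not overlap for any of these genes. The log2 changes were 0.66 for Ifi44 (SE 0.12, adjusted p = 0.0087), 0.51 for Ifitm3 (SE 0.11, adjusted p = 0.021) and 0.46 for Zbp1 (SE 0.08, adjusted p = 0.0082). The calls of Ifi44 and Zbp1 held in each of the 7 fits that left out 1 library, and that of Ifitm3 ended when any of PBS replicates 1 and 2 and sHA-X replicate 1 was omitted, with an adjusted p of at most 0.059. Without sHA-X replicates 3 and 4 together, none of the 25 was called, beside 3.25% of all genes called higher and 0.98% lower.

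The classical antiviral genes Isg15, Rsad2 and Isg20 varied widely within PBS. Isg15, a ubiquitin-like protein joined to other proteins during infection, had 138, 84.9, 165 and 115 FPKM in sHA-X, against 186, 196 and 62.5 FPKM in PBS. Rsad2 (viperin), which makes a nucleotide that ends viral RNA chains, had 63.2, 39.1, 74.6 and 48.3 FPKM in sHA-X, against 117, 119 and 29.9 FPKM in PBS. Isg20, an exonuclease, had 22.9, 18.8, 28.6 and 20.8 FPKM in sHA-X, against 37.4, 39.3 and 14.9 FPKM in PBS. In all of these, PBS replicates 1 and 2 lay above every sHA-X library and PBS replicate 3 below every one. Within PBS the highest library exceeded the lowest 3.14-fold for Isg15, 3.97-fold for Rsad2 and 2.64-fold for Isg20, and for Oas3, described below, it did so 3.27-fold. The log2 changes were -0.11 (95% interval -1.29 to 1.07, adjusted p = 0.91), -0.45 (-1.84 to 0.95, adjusted p = 0.66) and -0.31 (-1.20 to 0.58, adjusted p = 0.63), with intervals that hold changes of either sign. Without PBS replicate 3, Rsad2 (log2 change -1.10, adjusted p = 0.048) and Isg20 (-0.74, adjusted p = 0.019) were called lower.

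**Figure D3:**
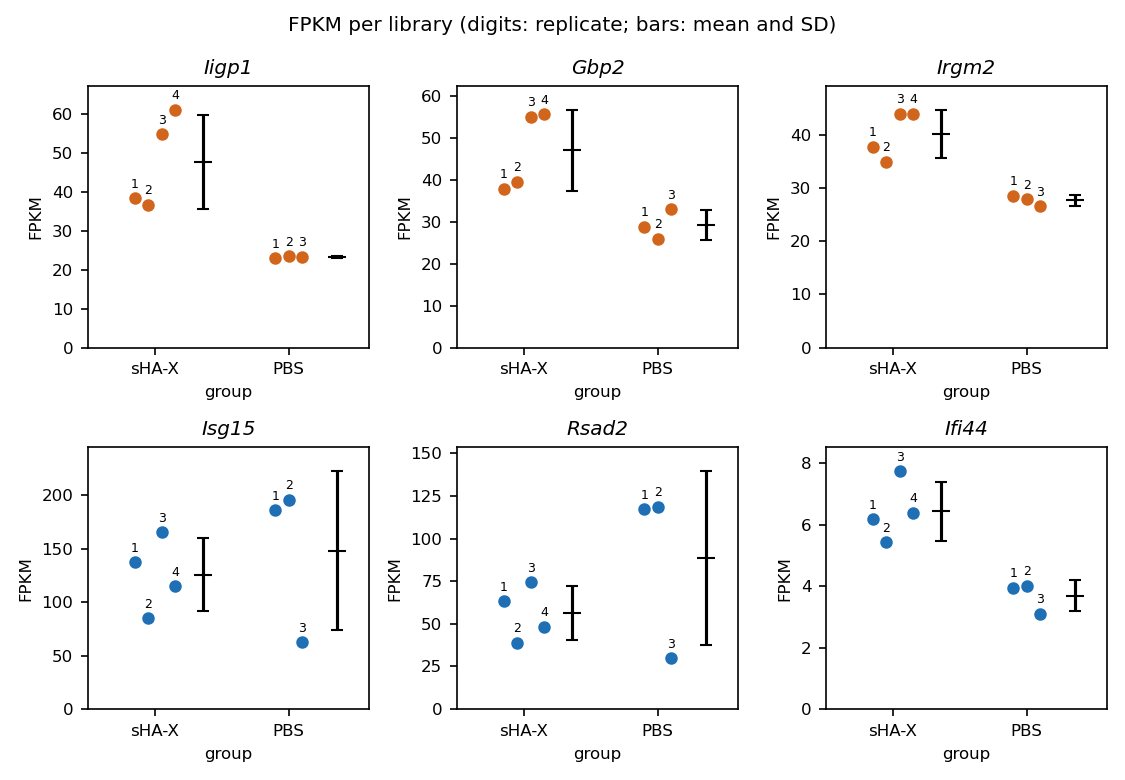
FPKM in each library for 3 GTPase genes (top) and 3 type I induced genes (bottom), with replicate numbers above the points and bars for the mean and SD. Iigp1, Gbp2, Irgm2 and Ifi44 lie above PBS in all 4 sHA-X libraries, while in Isg15 and Rsad2 PBS replicates 1 and 2 lie above and PBS replicate 3 below every sHA-X library.

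The remaining effectors were not called. Ifit3, of the family that binds foreign RNA, had 25.1, 16.2, 31.4 and 21.9 FPKM in sHA-X, against 17.0, 17.9 and 12.9 FPKM in PBS. Its log2 change was 0.52 (95% interval -0.02 to 1.06, adjusted p = 0.18), and Ifit2 (0.34, adjusted p = 0.18) and Ifit1 (0.37, adjusted p = 0.42) lie beside it on chromosome 19. Ifit2 and Ifit3 were called higher when sHA-X replicate 2 was left out. The synthetases that make the activator of RNase L were mixed. Oas2 had 5.39, 4.37, 5.85 and 3.88 FPKM in sHA-X, against 5.94, 6.58 and 3.92 FPKM in PBS (log2 change -0.13, adjusted p = 0.67). Oas1a had a log2 change of 0.41 (adjusted p = 0.084), Oas3 of -0.053 (adjusted p = 0.95), and the related Oasl1 and Oasl2 of 0.22 (adjusted p = 0.68) and 0.47 (adjusted p = 0.19). Cmpk2, a mitochondrial nucleotide kinase whose gene neighbours Rsad2 on chromosome 12, had a log2 change of 0.031 (adjusted p = 0.97). Rtp4, Xaf1 and Ifi35 ranged in log2 change from -0.12 (Xaf1) to 0.37 (Rtp4) with adjusted p between 0.23 and 0.86. Of the cytoplasmic RNA sensors, Ddx58 (RIG-I) had a log2 change of -0.10 (adjusted p = 0.39), Ifih1 (MDA5) of 0.27 (adjusted p = 0.16) and Dhx58 (LGP2) of 0.15 (adjusted p = 0.59), none past the threshold.

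The signalling members were not called either. Irf7, which amplifies the type I response, had 66.7, 50.9, 83.6 and 56.5 FPKM in sHA-X, against 57.1, 64.0 and 39.2 FPKM in PBS (log2 change 0.27, adjusted p = 0.48). Irf9, the DNA-binding subunit of the type I complex, had 53.5, 46.4, 54.7 and 46.3 FPKM in sHA-X, against 54.7, 57.8 and 44.5 FPKM in PBS (log2 change -0.054, adjusted p = 0.78). Its partner Stat2 had 25.7, 21.3, 23.7 and 21.9 FPKM in sHA-X, against 21.2, 21.1 and 20.6 FPKM in PBS. The Stat2 groups did not overlap, though by a narrow margin (log2 change 0.13, adjusted p = 0.25). Usp18, which removes Isg15 from proteins and dampens the type I receptor, had 15.3, 9.40, 18.1 and 12.1 FPKM in sHA-X, against 14.0, 17.7 and 8.47 FPKM in PBS, with a log2 change of 0.050 (adjusted p = 0.94).

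Within each group the type I induced genes followed an order of libraries that the GTPases shared in part. PBS replicate 3 was the lowest PBS library for 24 of the 25, against 4 of the 10 GTPases and 27.9% of all genes tested. Within sHA-X, replicates 1 and 3 were both above replicates 2 and 4 for 22 of the 25, against 0 of the 10 GTPases and 19.1% of all genes. The other 3, Ifit2 and the called Ifi44 and Zbp1, had replicates 3 and 4 above replicates 1 and 2, the order of the GTPases. Shared in part were sHA-X replicate 3 as the highest sHA-X library, for 20 of the 25 and 6 of the 10 GTPases (19.9% of all genes), and replicate 2 as the lowest, for 19 of the 25 and 6 of the 10 (19.7% of all genes). PBS libraries differed by more than 2-fold for 6 of the 25, against 0 of the 10 GTPases and 6.20% of all genes. Summed T cell markers were lower in sHA-X replicates 1 and 3 than in replicates 2 and 4 and highest in PBS replicate 3, at 141 FPKM (replicate 1), 183 FPKM (replicate 2), 145 FPKM (replicate 3) and 196 FPKM (replicate 4) in sHA-X, against 181, 185 and 243 FPKM in PBS. Summed neutrophil markers were 2780, 4312, 3133 and 3681 FPKM in sHA-X replicates 1 to 4, with replicates 2 and 4 above replicates 1 and 3. In PBS replicates 1 to 3 they were 2553, 2579 and 1542 FPKM. By reads, S100a8, S100a9, Ly6g and Mmp8 were lowest of PBS in replicate 3, and Csf3r and Cxcr2 were not. Within sHA-X, S100a8, S100a9, Ly6g and Mmp8 had replicates 2 and 4 above replicates 1 and 3. Csf3r (3380, 2506, 3235 and 2832 reads) and Cxcr2 (2181, 1552, 2175 and 1975 reads) had replicates 1 and 3 above replicates 2 and 4. The part of these cell types in the type I values was not tested. The order was noticed in the data, genes of a pathway are not independent of each other, and no test was made of it. Without PBS replicate 3, the type I median log2 change was -0.018 with 12 of 25 above 0. Without PBS replicate 2 and sHA-X replicate 2, the type I median was 0.38 with 23 of 25 above 0. These are the libraries with acinar and muscle genes. In that fit Oas1a joined the 3 called genes, and 4.13% of all genes were called higher. The GTPase median was 0.40 and 0.54 in the same fits, with 10 of 10 above 0 in both.

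**Figure D4:**
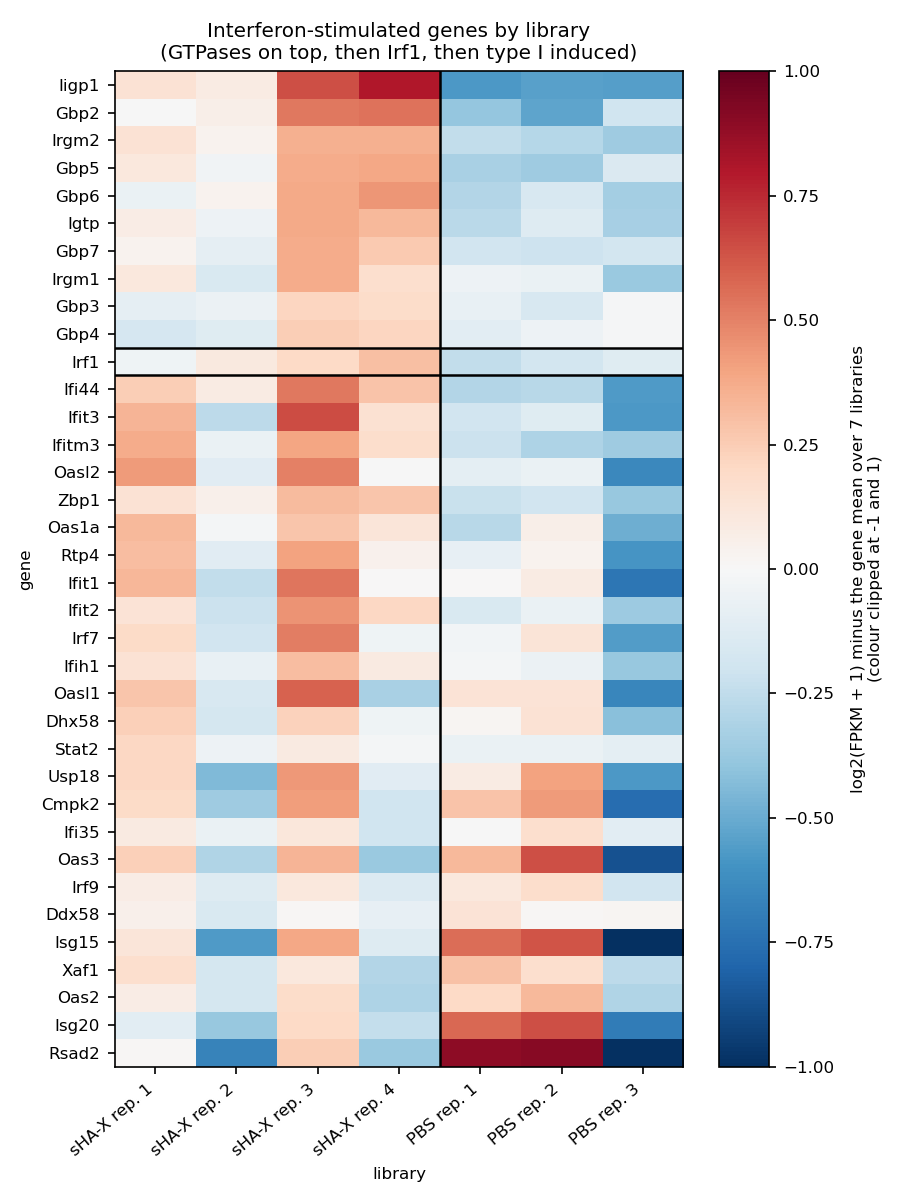
Log2(FPKM + 1) minus the gene's mean over the 7 libraries, shown as colour for the 36 genes (rows, by class and log2 change) and the libraries (columns, sHA-X left of the line). GTPase rows are red in sHA-X replicates 3 and 4 and blue or near white in PBS, while many type I rows are blue in PBS replicate 3, where 24 of 25 had their lowest PBS value, and in sHA-X replicate 2.

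Higher in the pathway, almost no interferon message was measured. Of 12 ligand genes, 10, Ifnb1 among them, had 0 FPKM in all 7 libraries, where a 0 allows up to 3 reads a library. Ifng, which encodes interferon gamma, had 0.336, 1.003, 0.741 and 1.40 FPKM in sHA-X, against 0.539, 1.09 and 0.766 FPKM in PBS, with 13 to 63 reads a library. The groups overlapped, and Ifng was under the minimum mean of 1 FPKM, so it was not tested. Of the 5 receptor genes tested, 0 were called (1 higher and 1 lower at an unadjusted p under 0.05). Ifnar1 had 18.9, 17.9, 18.0 and 19.4 FPKM in sHA-X, against 21.2, 20.2 and 23.1 FPKM in PBS, lower without overlap but short of the threshold (log2 change -0.20, adjusted p = 0.064). The log2 changes of Ifnar2, Ifngr1 and Ifngr2 were 0.086, 0.0066 and 0.0027, with adjusted p of at least 0.34.

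The signalling genes Socs1, Socs3 and Stat3 were called higher. Socs1, a feedback inhibitor of the kinases at the receptors, had 12.0, 13.5, 12.5 and 11.6 FPKM in sHA-X, against 8.79, 7.66 and 8.05 FPKM in PBS (log2 change 0.55, SE 0.07, adjusted p = 0.0025). The groups did not overlap. Socs3, an inhibitor of interleukin-6 signalling, had 19.1, 23.4, 18.8 and 25.1 FPKM in sHA-X, against 7.62, 10.6 and 9.88 FPKM in PBS, more than any of the 36 interferon-stimulated genes in log2 change (1.13, SE 0.13, adjusted p = 0.0020). Stat3, which acts downstream of interleukin-6, had a log2 change of 0.33 (adjusted p = 0.017), a call lost when PBS replicate 1 or PBS replicate 2 was omitted (adjusted p up to 0.081).

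A list of 19 genes upstream of interferon held sensors of nucleic acids or bacteria, and also signalling genes and transcription factors. Of the 19, 2 were called higher, a share near the 9.30% of all genes tested, and 2 lower, beside 5.03%. The higher ones were Myd88 (log2 change 0.32, adjusted p = 0.013) and Tlr4 (0.39, adjusted p = 0.021), and the lower ones Ikbke (-0.34, adjusted p = 0.018) and Spib. The calls of Myd88 and Ikbke were lost when PBS replicate 1 was omitted (adjusted p = 0.061 and 0.063), and that of Tlr4 when any of PBS replicate 1 and sHA-X replicates 1 and 4 was (adjusted p up to 0.076). Spib, a transcription factor of plasmacytoid dendritic cells and B cells, had 83.8, 78.1, 75.6 and 68.4 FPKM in sHA-X, against 122, 118 and 136 FPKM in PBS (log2 change -0.71, SE 0.08, adjusted p = 0.0015). Tlr7, Tlr9 and Irf8 were not called (log2 changes 0.085, -0.12 and -0.18). Markers of plasmacytoid dendritic cells summed to 40.9 to 52.5 FPKM in sHA-X and 63.5 to 78.3 FPKM in PBS. Of the 10, 1 was called higher and 3 lower, beside 9.30% and 5.03% of all genes tested. Klk1 of this list had 708 reads in PBS replicate 2, the library with acinar markers, against 138 and 185 in the other PBS libraries. Cox6a2 had 85 reads in sHA-X replicate 2, the library with muscle markers, against 17 to 28 in the other sHA-X libraries. The highest sum of each group came from these libraries. Of the markers of NK cells 0 of 5 were called (2 lower at an unadjusted p under 0.05). Of those of T cells 1 of 6 was called lower, beside 5.03% of all genes tested. The part of these cell types in the interferon-stimulated genes was not tested.

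Related targets outside the 36 were called in both directions for type I interferon and in 1 direction for interferon gamma. Of 51 other type I induced genes tested, 8 were called higher and 6 lower, beside 9.30% and 5.03% of all genes tested, with a median log2 change of 0.044. Ifitm1, a relative of Ifitm3, had 117, 85.8, 102 and 97.5 FPKM in sHA-X, against 41.6, 40.2 and 44.8 FPKM in PBS (log2 change 1.23, SE 0.10, adjusted p = 0.00042). The neighbouring Ifitm2 rose by 0.77 (adjusted p = 0.0015), and Ly6a, a surface marker, by 0.65 (adjusted p = 0.00094) on the log2 scale. Lgals3bp rose by 0.60 (adjusted p = 0.0017) on the same scale. The list held 6 tested genes of the Ifi200 family, several of which sense DNA, and they were called in both directions. Ifi204 (log2 change 0.96, adjusted p = 0.0013) and Ifi211 (0.93, adjusted p = 0.0036) were higher, and Mndal (-0.43, adjusted p = 0.0021), Ifi203 (-0.41, adjusted p = 0.0056) and Ifi209 (-0.37, adjusted p = 0.0071) lower. Ifi205 was not called (0.50, adjusted p = 0.10). Ifi203, Ifi205, Ifi209 and Ifi211 were chosen after their values were seen, and near-identical members of the family may share reads. Bst2 (tetherin), also a surface marker of plasmacytoid dendritic cells, was called higher (0.37, adjusted p = 0.024), a call lost when any of PBS replicates 1 and 2 and sHA-X replicate 1 was omitted (adjusted p up to 0.094).

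Of 23 other gamma-induced genes tested, 6 were called higher and 0 lower, beside 9.30% and 5.03% of all genes tested. Of the 23 log2 changes, 20 were above 0, beside 6656 of all 11920, and the median was 0.26. Batf2, a transcription factor of activated macrophages, had 2.42, 2.43, 3.23 and 2.91 FPKM in sHA-X, against 1.01, 0.938 and 1.12 FPKM in PBS. It rose without overlap (log2 change 0.88, SE 0.10, adjusted p = 0.0014). Gm4951, a further immunity-related GTPase, had 10.2, 10.2, 11.8 and 13.5 FPKM in sHA-X, against 6.66, 5.97 and 6.63 FPKM in PBS (log2 change 0.74, adjusted p = 0.0030). The others were Serpina3g, a protease inhibitor (0.70, adjusted p = 0.0068), Casp1, the inflammasome protease (0.48, adjusted p = 0.0076), Cd274, which encodes the checkpoint ligand PD-L1 (0.31, adjusted p = 0.043), and Nlrc5, the transactivator of class I histocompatibility genes (0.29, adjusted p = 0.043). Of the fits that left out 1 library, 5 of 7 lost the call of Cd274 (adjusted p up to 0.16) and 6 of 7 that of Nlrc5 (adjusted p up to 0.13). Both calls were also lost with no filter (0.067 and 0.066), after median rescaling (0.067 for each) and after quantile normalization (0.066 and 0.062). The calls of Batf2, Gm4951, Serpina3g and Casp1 held in each of the 7 fits.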

How the data were processed

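RNA was extracted from spleen with TRIzol and libraries were made with the VAHTS Universal V6 kit, per the labels' protocols. HISAT2, HTSeq, fastp, DESeq2, R 3.2.0 and the build mm10 appear, with no roles, in the submitters' processing notes, which do not give strand. The authors deposited 1 table of FPKM for 22173 genes. Its header names no unit, which was read from the values: each gene's values stood in ratios of whole reads (within 0.02 of a read for 16888 of 16889 genes above 0 in at least 2 libraries), up to a factor common to a gene.

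The deposited FPKM were taken as log2(FPKM + 1), which understates changes of low genes, and the 11920 genes with a mean of at least 1 FPKM were tested with limma 3.58.1 (trend and robust, two-sided, group as the only term) in R 4.3.3. P-values were adjusted by Benjamini-Hochberg over those genes. Calls are at an adjusted p under 0.05. Intervals are at 95%. A 0 was taken to allow up to 3 reads, for counting error only.

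Members and lists were chosen with earlier results of these data known. Genes given by library were the called members, the 3 highest and 3 lowest log2 changes of each class, and a few fixed names. Of related lists, called genes and fixed names were given, at most 6 called genes a list besides the fixed names. Further Ifi200 genes were added to these after their values were seen. Some results on signal transduction are not reported here. Alternatives were other pseudocounts, filters, scalings and variance settings, a replicate block, and fits without libraries. Coordinates and promoters are from RefSeq on GRCm38, matched by gene identifier or symbol.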

Additional observations from a re-analysis of the deposited data

How the results depend on the processing

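The counts depended on the libraries and, for the GTPases, on the filter. GTPase genes called higher were 2 with no filter, where Gbp2 and Gbp5 had adjusted p of 0.054 and 0.051, 2 without sHA-X replicates 3 and 4 (an alternative chosen after seeing the data), and 1 to 6 when 1 library was left out, with more genes adjusted for or fewer samples in these fits. Interferon-stimulated genes called higher were 5, 2 and 3 to 11 in the same settings. Type I induced genes called higher were 0 without sHA-X replicates 3 and 4 and 2 to 5 with 1 library out. Those called lower were 0 to 2, which are also the 0 to 2 interferon-stimulated genes called lower. Interferon-stimulated genes without overlap were 19 without both second libraries and 12 to 19 with 1 out. Fewer libraries make non-overlap easier for any gene, and its share over all genes was not counted in these fits. Over all genes, 492 were higher and 330 lower without both second libraries, 384 and 116 without sHA-X replicates 3 and 4, and 488 to 1263 and 228 to 637 with 1 out. Quantile normalization called 938 lower. The share of calls that were higher was 64.9% as reported, 44.7% after quantile normalization and 53.2% after median rescaling, which moved the GTPase calls to 5 and 4.

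Replicate numbers did not pair the samples (correlations of same-numbered deviations 0.15, -0.21 and -0.29). With a replicate block, calls were 276 higher and 72 lower over all genes, 2 interferon-stimulated genes higher (Gbp2 and Iigp1), 2 GTPases and 0 type I induced genes.

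Some uncalled changes turned sign, and the cause was not tested. Most of them were near 0 as reported, but Isg20 (-0.31) and Rsad2 (-0.45) were not. Ifngr1 was -0.028 after median rescaling and -0.055 after quantile normalization. Ifngr2 was -0.031 and -0.049 in these and -0.031 without sHA-X replicates 3 and 4, where Gbp4 was -0.090 and Usp18 -0.090. With 1 library or both second libraries out, Ifngr1 ran from -0.061 to 0.10, Ifngr2 from -0.044 to 0.078, Irf9 from -0.16 to 0.056, Isg20 from -0.74 to 0.011, Oas2 from -0.32 to 0.033, Rsad2 from -1.10 to 0.037 and Usp18 from -0.22 to 0.42. Isg20 and Rsad2 were called lower at the low end, without PBS replicate 3. Depth was at least 29259806 reads, so it limits the ligands, at 0 or few reads, more than the 36 genes.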
